A study of Mus musculus with 5 samples.

Results

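Histone acetyltransferases are the enzymes that transfer the acetyl group of acetyl-CoA to lysines of histone tails. Peaks of acetylated histone were examined at 9 mouse genes that encode them, Ep300, Crebbp, Kat2a, Kat2b, Kat5, Kat6a, Kat6b, Kat7 and Kat8, out of 21938 protein-coding genes of the GRCm38 annotation. The genes were taken by name, and all peaks that reached the gene body or the 10 kb on either side of it were kept. All 9 genes were found, with 43 peaks in 16 separate places over 5 libraries, of 44578 peaks in the lists.

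ChIPseq was performed on TM cells, the memory type of CD8+ T cell, with 2 WT and 3 TPdh-/- libraries. TPdh-/- mice came from crossing B6.129P2-Pdha1tm1ptl/J mice, which carry a floxed Pdha1, with CD4-Cre transgenic mice, and thereby lack the E1 alpha subunit of pyruvate dehydrogenase in T cells. The CD4 promoter of the transgene is active in the thymus before the CD4 and CD8 lineages part, so the deletion extends to CD8+ cells. Both groups shared the culture: OT-I cells, which carry one transgenic T cell receptor, were activated with OVA peptide and then kept in IL-15, and young adult males and females were used. The sources used here do not give the sex or exact age of the animals behind each library, whether the WT mice carried Cre, or whether each library came from its own animal. The antibody is described as recognising acetylated histones, and the sample descriptions name lysine 18. The genotype is taken from the labels, since peaks do not show whether Pdha1 was deleted.

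Lysine acetyltransferases fall into families. Ep300 and Crebbp encode the large coactivators p300 and CBP, which are known as the main writers of acetylation at histone H3 lysines 18 and 27. Kat2a and Kat2b encode GCN5 and PCAF, catalytic subunits of SAGA and ATAC, while Kat5, Kat6a, Kat6b, Kat7 and Kat8 encode the MYST enzymes TIP60, MOZ, MORF, HBO1 and MOF. Acetylated H3 tails mark active promoters and enhancers in T cells, and all of these enzymes use acetyl-CoA, a product of the pyruvate dehydrogenase complex.

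Other samples of the study were not analysed here. The 2 WT lists held 15962 and 8859 peaks, and the lists of TPdh-/- replicates 1, 2 and 3 held 4920, 5419 and 9418. WT replicate 1 stood apart by its length. The authors called the peaks library by library. The labels give 37000000 reads of 51 bases as the least sequenced per library, and the actual depth of each is unknown, because reads are not counted in the lists. A gene without a peak is therefore one whose signal did not pass the peak caller's threshold in that library, not one shown to lack acetylation. Each peak is given with its fold enrichment over the local background as MACS2 estimated it, its −log10 q and its percentile, the share of the peaks of that list that it equals or exceeds in −log10 q, where 0 stands for no peak. A percentile depends on the length of its list, since a list that runs further into weak peaks raises the percentile of every peak above them.

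The DNA of 4 places that carry the pattern of these genes is printed here from the GRCm38 genome as RefSeq distributes it, 5′ to 3′ on the strand of the gene. Ep300 and Crebbp are shown by the 250 bases upstream of their start, because a peak lay at the first in every library and at the second in WT replicate 1 alone. Kat6b, which has 12 annotated start sites, is shown by the 250 bases upstream of an internal start. Its peaks lay downstream of that start, each covering another annotated start, and not at the 5′ end of the gene. Kat5 is shown by 283 bases of the stretch shared by its peaks, since these were the strongest peaks of all 9 genes. Capitals mark matches, on either strand, to GGGCGG (SP/KLF), CCAAT (NFY), TGCGCA (NRF1) and TGACGT (CRE).
Ep300 upstream of the start, chr15:81585101-81585350, plus strand: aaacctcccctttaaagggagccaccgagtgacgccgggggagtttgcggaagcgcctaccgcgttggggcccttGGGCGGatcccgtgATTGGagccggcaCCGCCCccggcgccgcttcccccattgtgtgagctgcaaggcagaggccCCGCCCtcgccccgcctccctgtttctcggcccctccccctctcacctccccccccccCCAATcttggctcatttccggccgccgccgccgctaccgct
Crebbp upstream of the start, chr16:4213998-4214247, minus strand: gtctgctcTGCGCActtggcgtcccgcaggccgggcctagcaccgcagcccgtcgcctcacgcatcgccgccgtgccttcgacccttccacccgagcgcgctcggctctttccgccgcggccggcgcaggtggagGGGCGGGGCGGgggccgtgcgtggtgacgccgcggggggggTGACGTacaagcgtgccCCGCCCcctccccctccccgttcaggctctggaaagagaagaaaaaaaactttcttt
Kat6b upstream of the internal start, chr14:21499520-21499769, plus strand: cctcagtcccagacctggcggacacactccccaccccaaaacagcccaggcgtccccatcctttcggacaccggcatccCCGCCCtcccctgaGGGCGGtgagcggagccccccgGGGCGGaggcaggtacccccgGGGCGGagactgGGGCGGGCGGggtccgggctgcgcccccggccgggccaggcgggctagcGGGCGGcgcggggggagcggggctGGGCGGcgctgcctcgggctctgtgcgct
Kat5 within the shared peak, chr19:5609747-5610029, minus strand: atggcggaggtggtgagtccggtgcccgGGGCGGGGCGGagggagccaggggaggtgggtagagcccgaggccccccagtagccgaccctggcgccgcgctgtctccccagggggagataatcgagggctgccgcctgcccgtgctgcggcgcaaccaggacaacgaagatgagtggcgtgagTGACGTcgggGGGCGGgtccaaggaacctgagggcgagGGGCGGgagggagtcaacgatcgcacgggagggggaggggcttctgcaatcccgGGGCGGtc

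These stretches are rich in CpG. The 250 bases upstream of the start held 24 CpG in Ep300, 32 in Crebbp and 30 in Kat6a, against a median of 8 over all protein-coding genes. They held 11 in Kat2a, 6 in Kat2b, 11 in Kat5, 8 in Kat7 and 10 in Kat8. Kat6b had 3 CpG upstream of its 5′ end and 27 upstream of the internal start printed above. CpG was not counted upstream of the other starts of Kat6b, among them those that its peaks covered. Of the motifs searched in the 250 bases upstream of the gene start, GGGCGG was found in 4 of the 9 genes (Ep300, Crebbp, Kat6a and Kat8) and in 39.0% of all promoters, and CCAAT in 4 (Ep300, Kat5, Kat7 and Kat8) and in 36.0%. TGCGCA was found in Crebbp and Kat2a and in 7.89% of all promoters, TGACGT in Crebbp and Kat8 and in 7.17%, and the E-box CACGTG in Kat5 and Kat6a and in 6.53%. TGTGGT (RUNX) was found in Kat2b and in 13.0% of all promoters. CCGGAAG (ETS), AAGATGG (YY1) and the TATA box motif TATAAA were found in none of the 9 genes, and in 8.03%, 4.16% and 11.5% of all promoters. A match describes the letters alone.

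Across the 9 genes, the genes with a peak within 10 kb numbered 9 in WT replicate 1, 7 in WT replicate 2, and 5, 5 and 6 in TPdh-/- replicates 1, 2 and 3. The same lists placed a peak within 10 kb of 54.0%, 36.4%, 23.2%, 24.7% and 39.2% of all protein-coding genes. The order of the libraries was thus that of all genes except that TPdh-/- replicate 3 lay above WT replicate 2 over all genes and below it over these 9. The mean was 8.0 ± 1.41 genes in WT (SD, n = 2) and 5.33 ± 0.577 in TPdh-/- (SD, n = 3), a difference of 2.67. The 9 genes are long, with a median length of 66.7 kb against 17.4 kb over all protein-coding genes, and the window searched is longer by the same length.

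Promoter peaks, those within 3 kb of any annotated start site of the gene, were present at 9 of the 9 genes in WT replicate 1, at 6 in WT replicate 2, and at 4, 4 and 5 in TPdh-/- replicates 1, 2 and 3. Among all protein-coding genes the shares were 42.1%, 24.8%, 15.3%, 16.5% and 27.9%. The mean was 7.5 ± 2.12 genes in WT and 4.33 ± 0.577 in TPdh-/-, a difference of 3.17 that fell to 1.67 without WT replicate 1. When every list was shortened to its 4920 strongest peaks, the length of the shortest list, the genes with a promoter peak numbered 5 and 5 in WT and 4, 4 and 5 in TPdh-/-, a difference of 0.667. The share of all protein-coding genes was not computed at that list length.

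**Figure D1:**
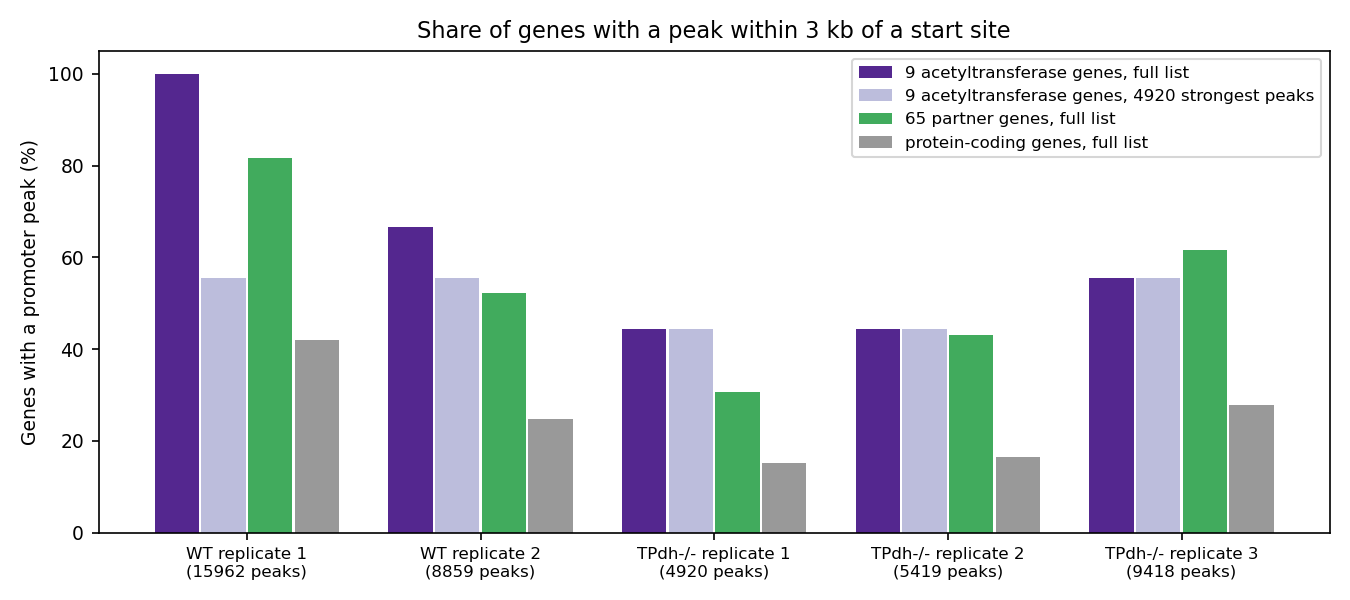
Bars show the percentage of genes with a promoter peak in each library. The 9 acetyltransferase genes are shown with the full lists and with the 4920 strongest peaks of each list. The 65 partner genes and all protein-coding genes are shown with the full lists alone. All 9 genes have one in WT replicate 1 with its full list, and their share stands at 44.4% to 55.6% in all 5 libraries at equal list length.

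A promoter peak in all 5 libraries was found at 4 of the 9 genes (Ep300, Kat2b, Kat5 and Kat6b), against 10.9% of all protein-coding genes, and a peak within 10 kb in all 5 at those genes and Crebbp, against 17.1%. The promoter count was 2 of 9 (Ep300 and Kat5) when the 5′ end of the gene was the only start considered. The share of all protein-coding genes was not computed for that definition. The 9 genes have 3 to 12 annotated start sites each, and this number was not set against that of other genes. Of the 9493 genes with a promoter peak in any library, 25.9% had it in WT replicate 1 alone, as Crebbp, Kat2a and Kat6a did. The percentile was higher in both WT than in every TPdh-/- library at 3 of the 9 genes (Kat2b, Kat7 and Kat8), against 21.2% of the 9493 genes. With the full lists, the reverse order was found at none of the 9 and at 0.369% of the 9493. At Kat8, both WT libraries and none of the TPdh-/- libraries had a promoter peak, as at 5.1% of the 9493. The counts of 3, 3 and 1 of these patterns lay within about 1 gene of what the shares over the 9493 genes would give for 9 genes.

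The percentile of the strongest promoter peak was compared between the genotypes for all 9493 genes by an exact permutation test over the 10 splits of 5 libraries into 2 and 3. The two-sided p of this design cannot fall below 0.2. It places the difference of group means among those of all 10 splits of these libraries, which may differ for technical reasons. None of the 9 genes could therefore pass 0.05, 0 of the 9493 genes had an unadjusted p under 0.05, and the adjusted p was 0.911 for each of the 9 by the exact permutation test with Benjamini-Hochberg adjustment. The percentile was on average higher in WT at 89.6% of the 9493 genes, with a median difference of 18.8, so the differences of single genes below are to be set against that shift.

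**Figure D2:**
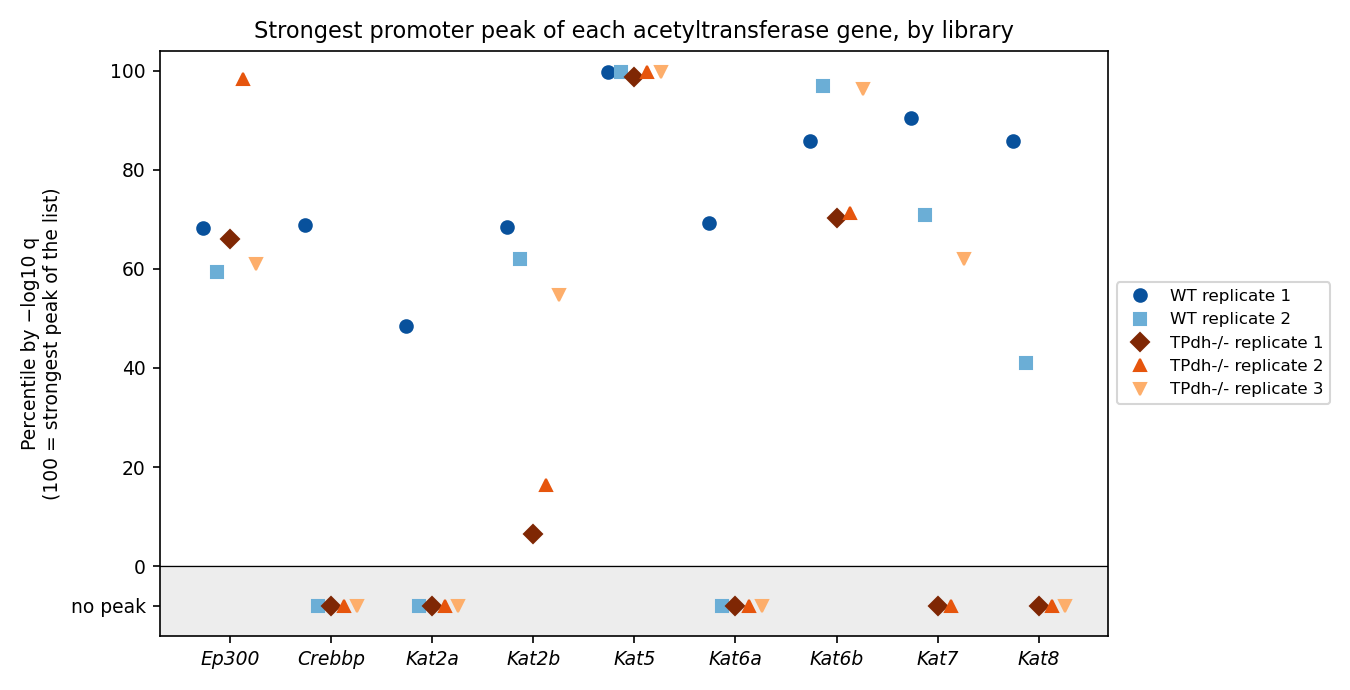
Points give the percentile by −log10 q of the strongest promoter peak of each gene in each library, with libraries that had no such peak in the grey strip. Kat5 sits above 98 in all 5 libraries, while Crebbp, Kat2a and Kat6a have a peak in WT replicate 1 alone.

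Ep300 encodes p300 and lies on the plus strand at chr15:81585351-81652077. Its only peak in each library lay over the first exon, and in WT replicate 1 and TPdh-/- replicate 3 it also reached upstream over the sequence printed above. The peak also covered the start of Gm23880 in every library, and that of 1110025M09Rik in WT replicate 1 and TPdh-/- replicate 3. In WT replicates 1 and 2 the fold enrichment was 2.37 and 2.59, whereas TPdh-/- replicates 1, 2 and 3 had 2.90, 3.39 and 2.38. TPdh-/- replicates 1 and 2 were the highest, and TPdh-/- replicate 3 fell between the WT libraries, so the groups overlapped. The mean fold was 2.48 ± 0.157 in WT and 2.89 ± 0.505 in TPdh-/-, a difference of −0.415 (exact permutation test, two-sided, p = 0.4). By −log10 q the WT peaks ranked 5083 and 3598, while the TPdh-/- peaks ranked 1674, 95 and 3682. Its place was thus near the top of the list in TPdh-/- replicate 2 alone. In percentiles this was 68.2 and 59.4 in WT and 66.0, 98.3 and 60.9 in TPdh-/-, a difference of −11.3 (exact permutation test, two-sided, p = 0.8), which became 0.324 without TPdh-/- replicate 2. At equal list length the peak was missing from WT replicate 1 and the difference was −49.6 (exact permutation test, two-sided, p = 0.4). Ranked only among the regions with a peak in every library, its percentiles were 20.4 and 28.6 in WT, below the 54.9, 97.1 and 29.8 of TPdh-/-. The groups did not overlap there (difference −36.1, exact permutation test, two-sided, p = 0.2, the smallest possible). The share of the 3099 such regions with that order in this ranking was not computed. By fold, every TPdh-/- library lay above both WT in 11.6% of them. Ep300 and Kat5 were the members with a peak at the 5′ end of the gene in every library.

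Over the 5 libraries, the width of the Ep300 peak ran in the reverse order of its fold. Whether the width of a called peak affects its fold was not tested. The WT peaks were 2224 and 1314 bp wide, and those of TPdh-/- replicates 1, 2 and 3 were 1116, 924 and 1877 bp. The narrowest peak was in TPdh-/- replicate 2, where fold and −log10 q were highest, and the broadest in WT replicate 1, where the fold was lowest. The 924 bp that all 5 peaks shared held 10.8 CpG per 100 bases, the most of the 6 places with a peak in every library, and were annotated throughout as untranslated sequence of at least 1 transcript.

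Crebbp encodes CBP, the paralogue of p300, and lies on the minus strand at chr16:4081328-4213997. A peak across its start, from −670 to 1207 bp relative to the start, was called in WT replicate 1 alone. It was 1878 bp wide, with a fold enrichment of 3.11 and a −log10 q of 5.84, and ranked 4974 of 15962, the 68.8 percentile. No promoter peak was called in WT replicate 2 or in the 3 TPdh-/- libraries, so the other WT library went with the TPdh-/- libraries. With lists of 4920 peaks it was missing from WT replicate 1 as well, since its rank lay just beyond that length. The percentile difference of 34.4 (exact permutation test, two-sided, p = 0.8) was 0 without WT replicate 1.

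Crebbp had other peaks in its window. A weak one in an intron, 77.3 to 78.1 kb downstream of the start, had a fold of 2.19, ranked 15273 and was again called in WT replicate 1 alone. A peak called in all 5 libraries lay 2806 to 3039 bp beyond the 3′ end of Crebbp, at the start of its neighbour Trap1, which encodes a mitochondrial chaperone of the HSP90 family. Its fold was 3.03 and 3.09 in WT and 2.97, 3.04 and 2.70 in TPdh-/-. TPdh-/- replicate 3 was the lowest, and TPdh-/- replicate 2 lay between the WT libraries (difference 0.157, exact permutation test, two-sided, p = 0.4). The presence of Crebbp among the genes with a peak within 10 kb in every library thus rests on the promoter of Trap1. Between the printed p300 and CBP promoters, the one with more CpG was the one without a peak in 4 of 5 libraries.

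**Figure D3:**
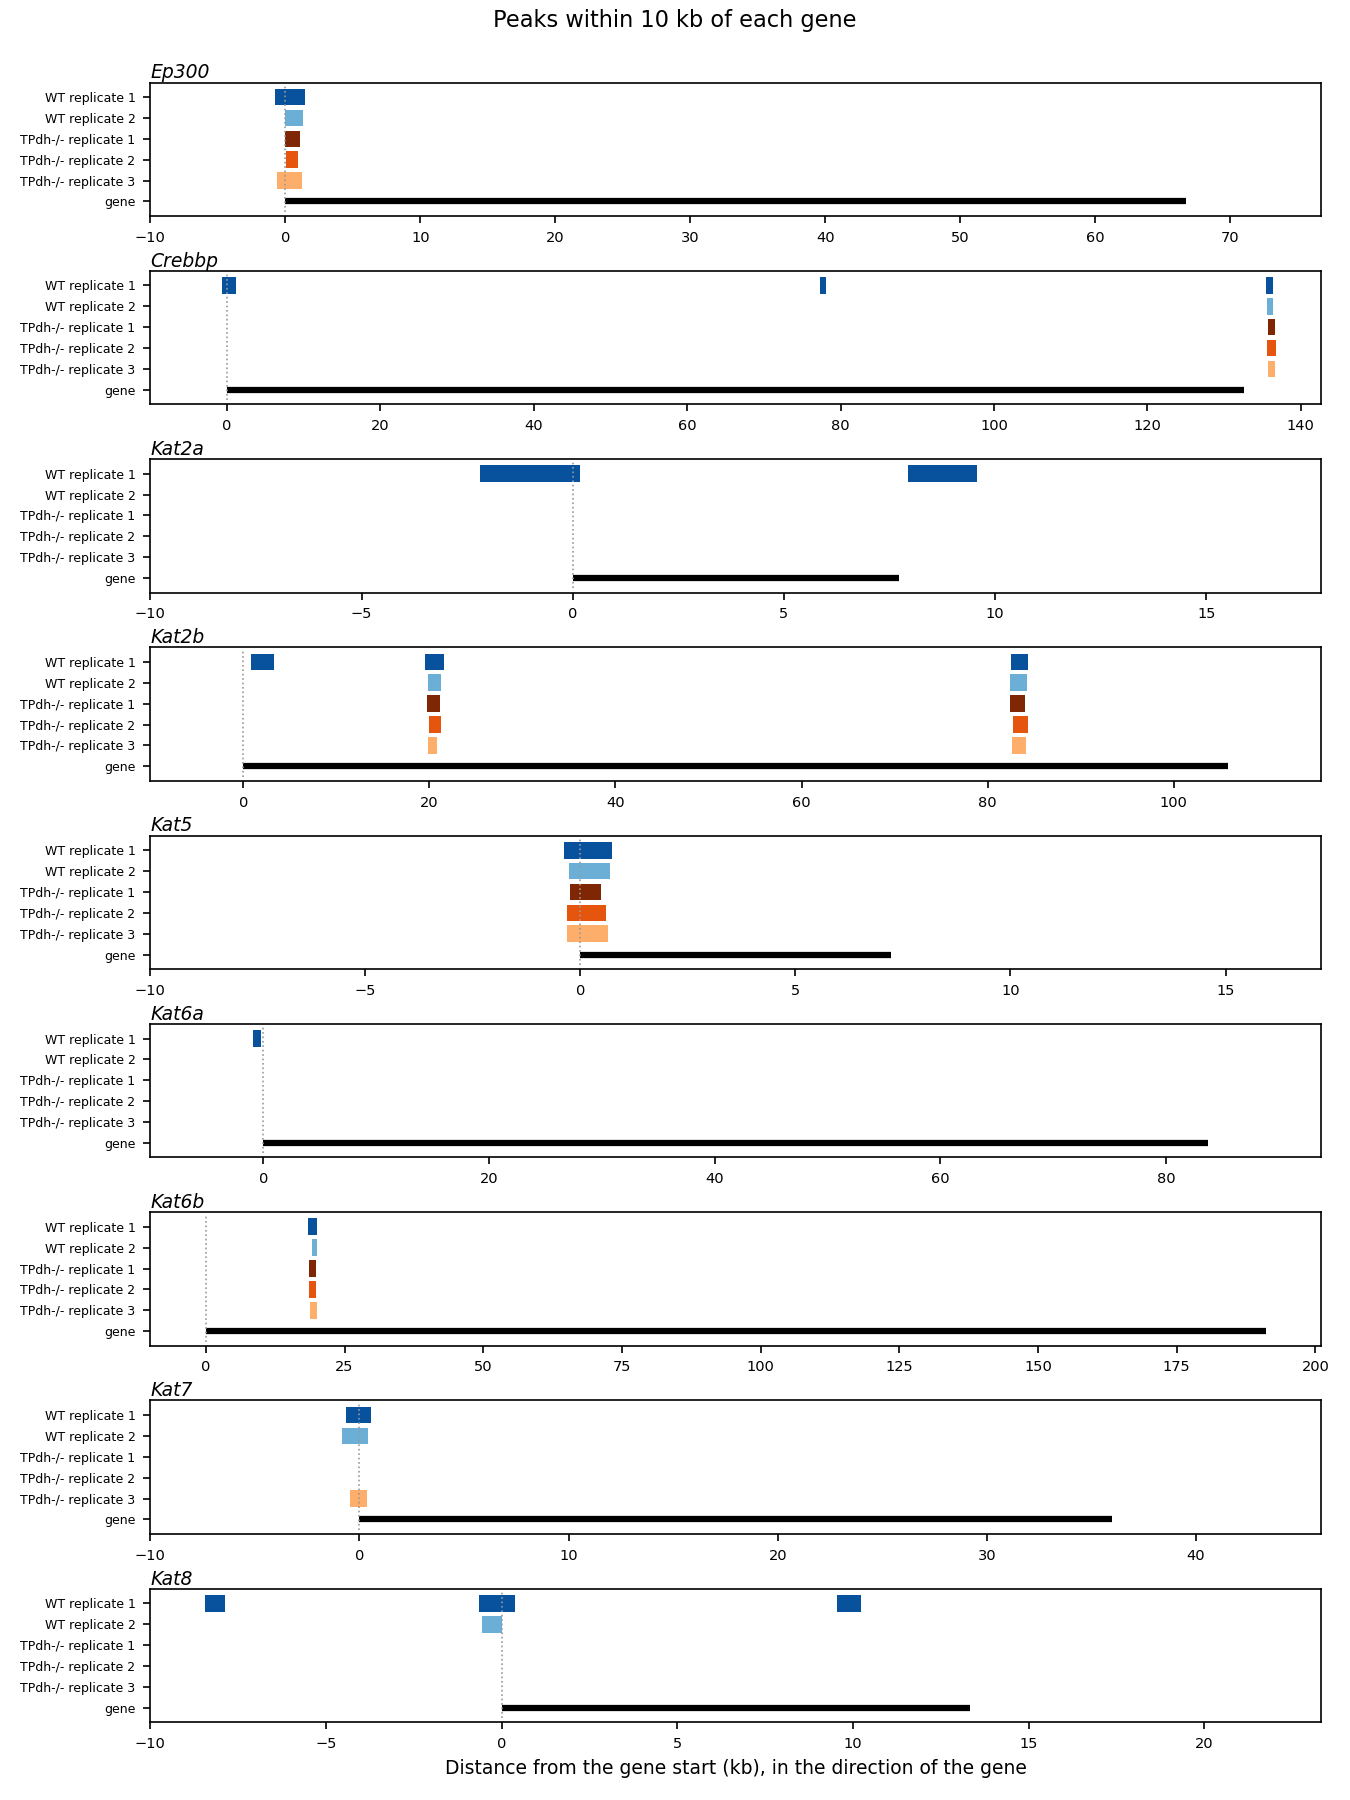
Each panel places the peaks of the 5 libraries (bars, one row a library) along a gene (black line), by the distance in kb from the gene start (dotted line). Peaks at or just inside the start recur in every library at Ep300 and Kat5, the peaks of Kat6b lie at least 18.5 kb inside the gene, and Kat2a and Kat6a have peaks in WT replicate 1 alone.

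Kat2a encodes GCN5 and lies on the minus strand at chr11:100704746-100712465. Its peaks were called in WT replicate 1 alone. The one over the start reached from −2206 to 177 bp, also covered the start of Hspb9, had a fold of 2.62 and ranked 8241. The other lay 224 bp beyond the 3′ end, at the start of Dhx58, with a fold of 2.84 and a rank of 6700. Both ranks were beyond the length of the TPdh-/- replicate 1 and 2 lists. The percentile of the promoter peak was 48.4, and the difference of 24.2 (exact permutation test, two-sided, p = 0.8) was 0 without WT replicate 1.

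Kat2b encodes PCAF, which shares its complexes with GCN5, and lies on the plus strand at chr17:53566861-53672720. Unlike Ep300, Kat5, Kat7 and Kat8, it had no peak across its 5′ end in any library. WT replicate 1 alone had a broad, low peak 842 to 3289 bp downstream of the start, with a fold of 1.85. The peaks found in every library lay deep in the gene, in introns, near 20 kb and 83 kb from the start. The stretches below are the central 300 bases that the 5 peaks of each place shared. They are shown because these had the fewest CpG of the 6 places with a peak in every library, 1.33 and 0.401 per 100 bases, and capitals mark TATAAA, the only match among the motifs listed above.
Kat2b intron, the place near 20 kb, chr17:53587068-53587367, plus strand: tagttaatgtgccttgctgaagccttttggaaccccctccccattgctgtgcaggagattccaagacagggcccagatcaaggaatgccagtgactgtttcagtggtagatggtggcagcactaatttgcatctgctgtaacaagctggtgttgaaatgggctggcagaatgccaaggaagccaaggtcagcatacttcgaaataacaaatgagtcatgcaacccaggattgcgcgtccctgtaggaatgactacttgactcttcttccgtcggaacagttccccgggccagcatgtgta
Kat2b intron, the place near 83 kb, chr17:53650062-53650361, plus strand: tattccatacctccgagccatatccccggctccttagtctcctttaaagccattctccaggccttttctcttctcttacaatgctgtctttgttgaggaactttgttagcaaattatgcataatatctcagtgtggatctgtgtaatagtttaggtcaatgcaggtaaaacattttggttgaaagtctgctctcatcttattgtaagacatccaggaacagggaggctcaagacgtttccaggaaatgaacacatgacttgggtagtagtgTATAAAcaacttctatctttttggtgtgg

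At the first of these intronic places the fold was 2.32 and 2.38 in WT and 2.24, 2.23 and 2.35 in TPdh-/-. All values lay within a narrow range, below the median fold of 2.40 to 2.65 of the lists, and TPdh-/- replicate 3 fell between the WT libraries. The mean was 2.35 ± 0.0394 in WT and 2.28 ± 0.0670 in TPdh-/-, a difference of 0.0758 (exact permutation test, two-sided, p = 0.4). The ranks were 5025 and 3374 in WT and 4597, 4532 and 4272 in TPdh-/-, whose lists differ in length, so the percentiles were 68.5 and 61.9 in WT and 6.59, 16.4 and 54.7 in TPdh-/-. The percentile separated the groups although the fold did not, with TPdh-/- replicate 3 closest to WT. The percentile difference was 39.4 (exact permutation test, two-sided, p = 0.2, the smallest possible). It was 6.49 at equal list length, where the peak was missing from WT replicate 1. This place counts as a promoter peak through a shorter transcript whose start lay 2229 to 2679 bp away, and within 1 kb of a start only WT replicate 1 had a peak.

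At the second place, 4606 bp or more from any start of Kat2b, the fold was 2.20 and 2.50 in WT and 2.37, 2.26 and 2.11 in TPdh-/-. WT replicate 2 was the highest and TPdh-/- replicate 3 the lowest, and the groups overlapped (difference 0.103, exact permutation test, two-sided, p = 0.6). Its percentiles were 72.3 and 83.6 in WT and 54.6, 61.0 and 46.1 in TPdh-/-. The WT peaks spanned 1861 and 1733 bp and the TPdh-/- peaks 1533, 1596 and 1524 bp, so both WT peaks were broader than all TPdh-/- peaks. Over the whole lists the median width was 1150 and 987 bp for WT, against 855, 896 and 1026 bp for TPdh-/-.

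Kat5 encodes TIP60, the catalytic subunit of NuA4/TIP60, and lies on the minus strand at chr19:5603014-5610237. It had a single peak over the start in every library, and this was the strongest peak of the 9 genes in every library by fold. The fold was 4.81 and 4.72 in WT and 4.31, 5.07 and 5.10 in TPdh-/-. TPdh-/- replicate 1 was the lowest and TPdh-/- replicates 2 and 3 the highest, with the WT libraries between them. The mean was 4.76 ± 0.0645 in WT and 4.83 ± 0.446 in TPdh-/-, a difference of −0.0643 (exact permutation test, two-sided, p = 1.0). Its rank was 35 and 25 among the WT peaks, and 68, 16 and 20 among those of TPdh-/-. Its fold was above the 99th percentile of each list, which was 4.07 to 4.20, and its mean fold stood at the 99.9 percentile of the 3099 regions with a peak in all 5 libraries.

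The Kat5 peak was narrower than the median peak of its list in every library. The WT peaks spanned 1122 and 966 bp and the TPdh-/- peaks 740, 892 and 964 bp, and the widest reached from −380 to 741 bp relative to the start. Both WT peaks were broader than the 3 TPdh-/- peaks, although the closest pair differed by 2 bp, and the fold did not follow this order. Both Kat2b places had the same order of widths. The place at the start of Trap1 had the reverse, with 906 and 775 bp in WT against 921, 1105 and 919 bp in TPdh-/-. At Ep300 and Kat6b the widths of the groups overlapped. The share of all common regions with either order was not computed. Of the 283 bases printed above, 178 are annotated as coding sequence of at least 1 transcript. In percentiles the peak stood at 99.8 and 99.7 in WT and 98.6, 99.7 and 99.8 in TPdh-/-, a difference of 0.371 (exact permutation test, two-sided, p = 0.8), which was −0.00269 without TPdh-/- replicate 1.

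**Figure D4:**
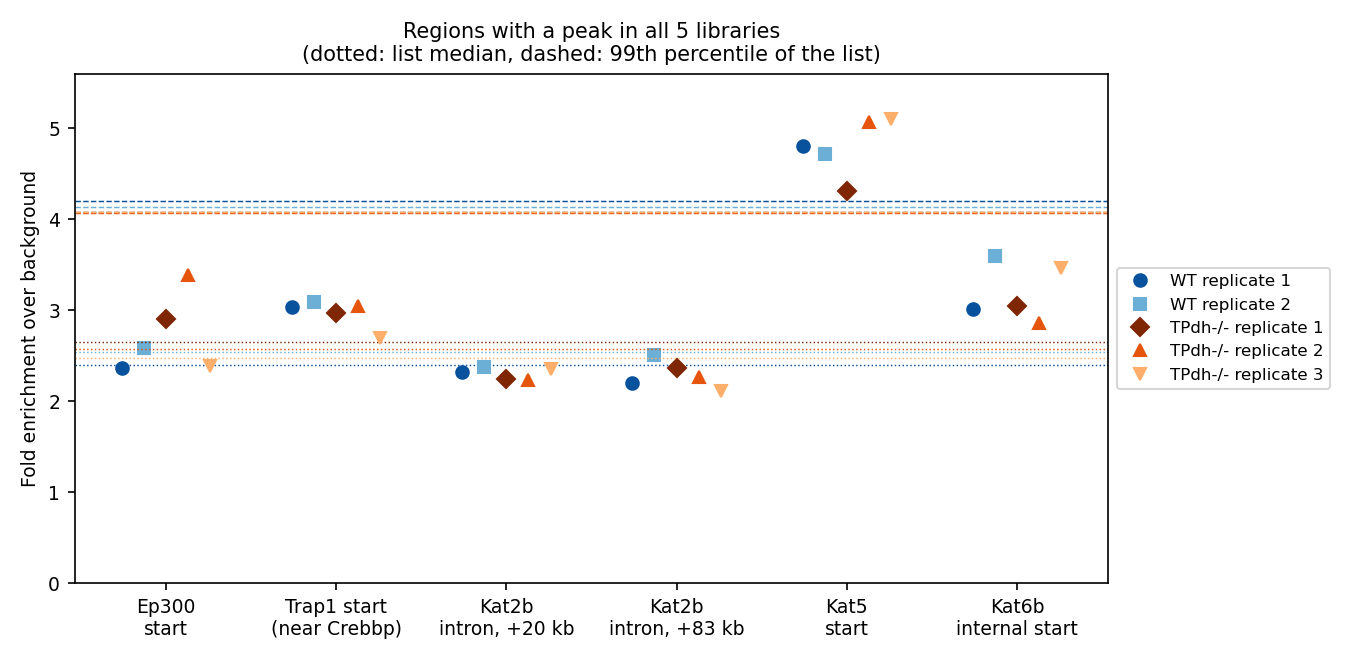
Points give the fold enrichment over background, on a linear axis, of the 6 places with a peak in all 5 libraries, with the median (dotted) and 99th percentile (dashed) of each list in the colour of its library. Kat5 lies above the dashed lines in every library, the Kat2b places lie below the dotted line of their own library, and at each place at least 1 TPdh-/- library reaches into or above the WT range.

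Kat6a and Kat6b encode MOZ and MORF, paralogues that act with BRPF proteins. Kat6a lies on the plus strand at chr8:22859535-22943259, and its only peak was called in WT replicate 1, from −877 to −236 bp relative to the start. It was 642 bp wide, with a fold of 2.98 and a −log10 q of 5.89, and ranked 4912, which left it in WT replicate 1 even in a list of 4920 peaks. The percentile was 69.2 there and the difference 34.6 (exact permutation test, two-sided, p = 0.8), which was 0 without that library.

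Kat6b lies on the plus strand at chr14:21481434-21672478, the longest of the 9 genes. A peak was called in every library, 18.5 to 20.1 kb inside the gene, and none at the 5′ end. Each peak covered an annotated start of Kat6b that lies downstream of the internal start whose upstream sequence is printed above. The fold was 3.02 and 3.60 in WT and 3.05, 2.86 and 3.46 in TPdh-/-. WT replicate 2 and TPdh-/- replicate 3 were high and the other libraries low, so the split ran across the genotypes. The difference was 0.183 (exact permutation test, two-sided, p = 0.6). The percentiles, 85.7 and 97.0 in WT and 70.2, 71.3 and 96.3 in TPdh-/-, overlapped too, with a difference of 12.1 (exact permutation test, two-sided, p = 0.4) that turned to −3.10 at equal list length. Apart from WT replicate 1, every library thus had a peak at Kat6b and none at Kat6a.

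Kat7 encodes HBO1, which acts with BRPF and JADE proteins, and lies on the minus strand at chr11:95274259-95310246. A peak across its start, which also covers the start of the antisense transcript Gm11520, was called in both WT libraries and in TPdh-/- replicate 3. The fold was 3.31 and 3.03 in WT and 3.01 in TPdh-/- replicate 3. The ranks were 1544, 2579 and 3577. The percentiles were 90.3 and 70.9 in WT and 62.0 in TPdh-/- replicate 3, with no peak in TPdh-/- replicates 1 and 2, so both WT libraries lay above all TPdh-/- libraries. The libraries with the peak were also those with the longest lists. The difference was 59.9 (exact permutation test, two-sided, p = 0.2). At equal list length it was 49.0 with the same p, and Kat7 was the only member for which both WT libraries still lay above all TPdh-/- libraries there. The share of all genes with that order at equal list length was not computed. Ranked by fold, the percentiles were 89.0 and 79.8 in WT and 80.6 in TPdh-/- replicate 3, so the groups overlapped (difference 57.6, exact permutation test, two-sided, p = 0.4). Where −log10 q had to reach 5, the peak was left in WT replicate 1 alone, at 75.1 (exact permutation test, two-sided, p = 0.8).

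Kat8 encodes MOF, which acetylates histone H4 as part of the MSL and NSL complexes, and lies on the plus strand at chr7:127912516-127925837. It was the only member with a promoter peak in each WT library and in none of the TPdh-/- libraries. WT replicate 1 had a peak of 1005 bp with a fold of 3.81 and a rank of 2276. The peak of WT replicate 2 was 585 bp wide, with a fold of 2.83 and a rank of 5223. The WT libraries thus differed in the strength of the peak, which stood at the 85.7 and 41.1 percentiles. The difference was 63.4 (exact permutation test, two-sided, p = 0.2). It was 26.9 at equal list length, where the peak of WT replicate 2 was no longer included and Kat8 had a peak in WT replicate 1 alone. WT replicate 1 alone also had a peak in an intron of Kat8, with a fold of 2.72, and one 7866 bp upstream at the start of Bckdk, with a fold of 2.86.

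Over these 16 places, 6 had a peak in all 5 libraries, as did 16.8% of the 18410 regions obtained by merging all peaks. A peak in WT replicate 1 alone was found at 8 places and in 30.9% of the regions, and one in both WT but none of the TPdh-/- libraries at 1 place (Kat8) and in 5.92%. None of the 16 places had a peak in TPdh-/- libraries without WT. The share of the 18410 regions with that pattern was not computed. At the 6 places shared by all, fold did not separate the genotypes in either direction. Over all 3099 regions with a peak in every library, the fold was higher in both WT than in every TPdh-/- library in 12.6% and higher in every TPdh-/- than in both WT in 11.6%, with a median difference of 0.00872. The difference at the members' 6 places was between −0.415 (Ep300) and 0.183 (Kat6b).

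Peaks covered 23.0 and 8.76 kb of the windows of the 9 genes in WT, and 6.88, 7.06 and 8.32 kb in TPdh-/-. WT replicate 1 stood apart, and the other WT library lay just above TPdh-/- replicate 3. The whole lists covered 20.2 and 9.89 Mb in WT, against 4.85, 5.52 and 10.9 Mb in TPdh-/-, so over the genome TPdh-/- replicate 3 exceeded WT replicate 2. The difference of 8.49 kb at the 9 genes fell to 1.34 kb at equal list length. The number of peaks was 16 and 8 in WT and 6, 6 and 7 in TPdh-/-, a difference of 5.67, or 1.67 without WT replicate 1.

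The other subunits of the complexes these enzymes work in, and further acetyltransferases, gave 65 partner genes, of which 53 and 34 had a promoter peak in the WT libraries and 20, 28 and 40 in TPdh-/- replicates 1, 2 and 3. TPdh-/- replicate 3 exceeded WT replicate 2 here, as it did over all protein-coding genes. A promoter peak in all 5 libraries was found at 15 of the 65 genes (23.1%), against the 10.9% of all protein-coding genes given above. Of the SAGA and ATAC subunits, 4 of 20 had one in every library, of NuA4/TIP60 5 of 15, of the MOZ/MORF and HBO1 subunits 2 of 9, of MSL and NSL 4 of 11, and of other acetyltransferases 1 of 12, where a subunit shared between complexes is counted in each. Both WT libraries and no TPdh-/- library had a promoter peak at 2 of the 55 partner genes with such a peak in any library (3.64%), against the 5.1% of the 9493 genes given above. These were Atxn7, which encodes a subunit of the SAGA deubiquitinase module, at the 51.9 and 38.0 percentiles, and Gtf3c4, a TFIIIC subunit with acetyltransferase activity, at the 82.1 and 53.4 percentiles. Within 10 kb of the gene, however, Atxn7 had a peak in all 5 libraries, and Gtf3c4 in 2. The ATAC subunits Tada2a and Yeats2, Ruvbl1 of NuA4/TIP60, Jade3 of HBO1, Kansl3 of NSL, and Clock and Taf1, listed among other acetyltransferases, had no peak within 10 kb in any library. The share of all protein-coding genes without such a peak was not computed.

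Promoter peaks were counted at markers of the labelled cell type and of other cell types. The shares of all protein-coding genes with a promoter peak were 42.1% and 24.8% in WT and 15.3%, 16.5% and 27.9% in TPdh-/-. Of 8 T cell genes, 8 and 6 had a promoter peak in WT and 2, 5 and 6 in TPdh-/-, with Cd8b1 and Lck in all 5 libraries and Cd8a in WT replicate 1 alone. Of the CD4 T cell genes, Cd4 had one in each WT library and in none of TPdh-/-, as Kat8 did, and Zbtb7b had one in WT replicate 1 alone. Of 5 myeloid genes Spi1 had one in every library, and of 6 liver, muscle and neuron genes none had one. Of 3 genes listed for NK cells, Eomes, which is not specific to NK cells, had one in WT replicate 1 alone. Of 3 erythroid genes, 2 and 1 had one in WT and 0, 0 and 1 in TPdh-/-. Among them Klf1 stood at the 86.5 percentile in WT replicate 1, above all 8 T cell genes there. The part of other cell types in the values of the acetyltransferase genes was not tested.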

How the data were processed

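Broad peaks of acetylated histone ChIPseq in 5 libraries of TM cells (2 WT, 3 TPdh-/-) were analysed. Per the labels and the study's methods, libraries were made from 50 ng of ChIP DNA with 15 PCR cycles. The authors aligned reads to GRCm38/mm10 with BWA-mem 0.7.17, kept uniquely mapping reads outside blacklisted regions with SAMtools 1.15.1 and called broad peaks with MACS2 2.2.6 for each library, with no input control named. The deposited lists give each peak's score, which was not used, its fold enrichment (a ratio on a linear scale), and its −log10 p-value and −log10 q-value. Reads are not counted in these lists, the depth of each library is unknown, and no counting interval is given.

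Peaks were assigned to genes of the GENCODE M21 annotation of GRCm38 by an overlap of at least 1 bp with the gene and 10 kb around it, or with 3 kb around any start site of the gene (promoter peak). Python 3.11.15, numpy 2.4.6, pandas 2.3.3, scipy 1.17.1, pysam 0.24.0 and matplotlib 3.10.9 were used. Regions common to all libraries are merged peaks. The difference of group means was tested by an exact permutation test over 10 splits, two-sided, with Benjamini-Hochberg adjustment over all genes or regions tested. On simulated lists, the assignment of peaks gave back the promoter percentiles of 200 of 200 genes in all 5 libraries. Assignment through internal starts, as at Kat2b and Kat6b, or of peaks shared by neighbouring genes was not tested separately. All 9 members are named. Of the partner genes, those with a promoter peak in each WT library and none of TPdh-/-, or with no peak in any, are named, and for Ep300 and Crebbp the 3 genes nearest in their 5 percentiles. The members, partner lists, markers and tests were chosen with earlier results of these data known. Alternatives were equal list lengths, minimum −log10 q values of 2 or 5, other windows and promoter definitions, ranking by fold, percentiles among common regions, a replicate block and leaving out each library. The result of 1 marker list is not reported here. Groups of 2 and 3 libraries are too small for a test of outlying samples.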

Additional observations from a re-analysis of the deposited data

How the results depend on the processing

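Depth is unknown, and no test could pass 0.05, so stability here is that of direction and size alone. At equal list length the difference between WT and TPdh-/- was 1.17 members with a peak, 1.0 peak, 0.667 members with a promoter peak and 1.34 kb covered, 2 members kept a promoter peak in all libraries, 1 had both WT libraries above all TPdh-/- libraries, and the percentile difference of Kat6b turned to −3.10 and that of Ep300 went to −49.6. Where −log10 q had to reach 5, these were 3.83 members with a peak, 1 member in all libraries and 0 with WT above, and −21.2 for Ep300. With the 5′ end of the gene as the only start, 2 members had a promoter peak in every library. Both WT libraries lay above for 1 member when ranked by fold and for 0 among regions common to all libraries, where Ep300 was at −36.1 with all TPdh-/- above both WT. Leaving out 1 library gave 1.67 to 3.67 members with a peak, 1.67 to 9.67 peaks, 1.67 to 4.67 members with a promoter peak and 1.35 to 15.6 kb, lowest without WT replicate 1 and highest without WT replicate 2. Members with WT above were 3 to 6, with 6 when WT replicate 2 and 5 when TPdh-/- replicate 3 was left out. The percentile difference of Ep300 was from −18.4 to 0.324, positive only without TPdh-/- replicate 2, and that of Kat5 from −0.00269 to 0.577, negative only without TPdh-/- replicate 1. The replicate numbers are not stated to pair the libraries. Blocking on the number (replicate block) drops TPdh-/- replicate 3, and the differences were 3.0 members with a peak, 6.0 peaks, 3.5 members with a promoter peak and 8.94 kb, and no direction changed. Of 72 alternative values for the counts and lengths, 50 lay within 1 SD between libraries of the value reported (counts of members, within 1.5 times) and 22 did not. Of 117 for single members, 102 kept their sign at whatever size, 12 fell to 0 and 3 changed sign. The cause was not tested.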

Other observations

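Over the 5 libraries, the protein-coding genes whose promoter percentiles lay nearest to those of Ep300 were Tnpo1, Cdkl4 and Helz2, at Euclidean distances of 15.8, 17.1 and 23.9 percentile points. Like Ep300, Tnpo1 had its highest percentile in TPdh-/- replicate 2, at 87.3, and 53.8 to 68.5 in the other libraries. Nearest to Crebbp were Zfp317, Phf1 and Prep, at distances of 0.0376, 0.0501 and 0.0626. Each had a promoter peak in WT replicate 1 alone, at the 68.8 percentile, a pattern shared by 25.9% of genes with a promoter peak, so the nearness of these genes rests on 1 value.

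Of the 65 partner genes, both WT libraries lay above all TPdh-/- libraries by percentile at 11, and all TPdh-/- libraries lay above both WT libraries at 1. These were 11 and 1 of the 55 partner genes with a promoter peak in any library, against 21.2% and 0.369% of the 9493 protein-coding genes with one. The gene with TPdh-/- above was Ing3, which encodes a subunit of NuA4/TIP60 that binds methylated histone H3, and it was named after its values were seen. Its percentiles were 46.1 and 30.2 in WT and 50.3, 72.3 and 51.7 in TPdh-/-.

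Among the subunits named after their values were seen, Epc1 of NuA4/TIP60 had a promoter peak above the 99th percentile in every library, between 99.7 and 99.9, as did Morf4l1, a chromodomain subunit of the same complex, between 99.5 and 99.8. Kat5 itself, the catalytic subunit, stood between 98.6 and 99.8. Of the 15 genes listed for this complex, 5 had a promoter peak in every library and 3 (Meaf6, Ruvbl1 and Vps72) had none in any. Of all 21938 protein-coding genes, 10.9% had one in every library and 9493 had one in any library. Within 10 kb, Vps72 had a peak in 4 libraries and Meaf6 in 2. Tada3 of SAGA and ATAC also stood high, between 98.5 and 99.7. Trrap, the large scaffold shared by SAGA and NuA4/TIP60, stood at 97.5 and 93.9 in WT and at 77.5, 85.5 and 93.8 in TPdh-/-, and TPdh-/- replicate 3 lay just below WT replicate 2.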
